A study of Danio rerio with 9 samples.

Results

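The 10 genes described here belong to cytokine signalling and were followed through 9 intestine libraries of zebrafish. They are 3 Janus kinase genes (jak1, jak2a, jak3), 3 genes for signal transducers and activators of transcription (stat3, stat4, stat6) and 4 feedback inhibitor genes (socs1a, socs3a, socs3b, cish). They were taken by name from the 26983 genes of the deposited tables. All 10 were found, and all 10 passed the filter on low counts that left 19450 genes for testing. The libraries carry 3 group codes, FM, SBM and D3, with 3 libraries each, and no strain, age, sex, diet, dose or duration is labelled. The series title concerns soybean meal enteritis of zebrafish and the shikonin ester β,β-dimethylacryloyl shikonin. The codes are not spelled out, so the groups are called by them here. The labels also do not tell whether a library is 1 fish or a pool, so each p-value reflects library-to-library spread alone, which may be partly technical.

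A JAK kinase sits on the inner side of a cytokine receptor. When the cytokine binds, the kinase phosphorylates the receptor and a STAT protein, which pairs, enters the nucleus and switches on target genes. Genes of the SOCS family and cish are among those targets, and their proteins bind the receptor or the kinase and damp the signal, so their transcripts are often read as a trace of recent signalling. In the gut STAT3 acts downstream of interleukin 6 and interleukin 22 in epithelial repair, STAT4 downstream of interleukin 12 and STAT6 downstream of interleukins 4 and 13, roles known mainly from mammals.

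Total counts ran from 34436497 to 36203230 per library, and the lowest count of any of the 10 genes in any library was 299, for cish. Levels are given as CPM, counts scaled to a common library size, with TMM factors correcting each total. Of 14 enterocyte markers none was at 0 in any library, among them anpepb, for a brush border aminopeptidase, at 1623 to 6805 CPM, and the apolipoprotein gene apoa1a at 1532 to 9703 CPM. Other organs were also present, as the map of marker levels shows. Summed over 16 exocrine pancreas markers, the level ran from 66810 CPM (D3 library 2, 6.84% of its counts) to 179211 CPM (FM library 1, 15.8%). Summed over 15 ovary and oocyte markers, the highest levels were 3535 CPM (SBM library 1) and 3752 CPM (D3 library 3), while each of the other 7 libraries held 48.4 to 487 CPM. Summed over 17 hepatocyte markers, 3 libraries stood out, with 44983 CPM (SBM library 2), 23293 CPM (D3 library 1) and 58738 CPM (D3 library 2), beside 1824 to 7852 CPM for the remaining 6. Red blood cell markers, which the map leaves out, summed over 7 genes to 910 CPM (SBM library 2) and 1019 CPM (D3 library 2). In the other 7 libraries they summed to 88.4 to 289 CPM. Across genes, SBM library 1 had a Spearman correlation of 0.975 with D3 library 3 and of 0.869 and 0.920 with the other SBM libraries. SBM library 2 was likewise nearer to D3 libraries 1 and 2 (0.961 and 0.965) than to SBM libraries 1 and 3 (0.869 and 0.920), while the FM libraries were nearest to one another (0.973 to 0.976). SBM library 3 was nearer to FM libraries 1, 2 and 3 (0.960, 0.952 and 0.953) than to SBM libraries 1 and 2 (0.920 each). Whether libraries were exchanged between groups was not tested, and each group value is therefore that of the libraries so labelled.

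**Figure D1:**
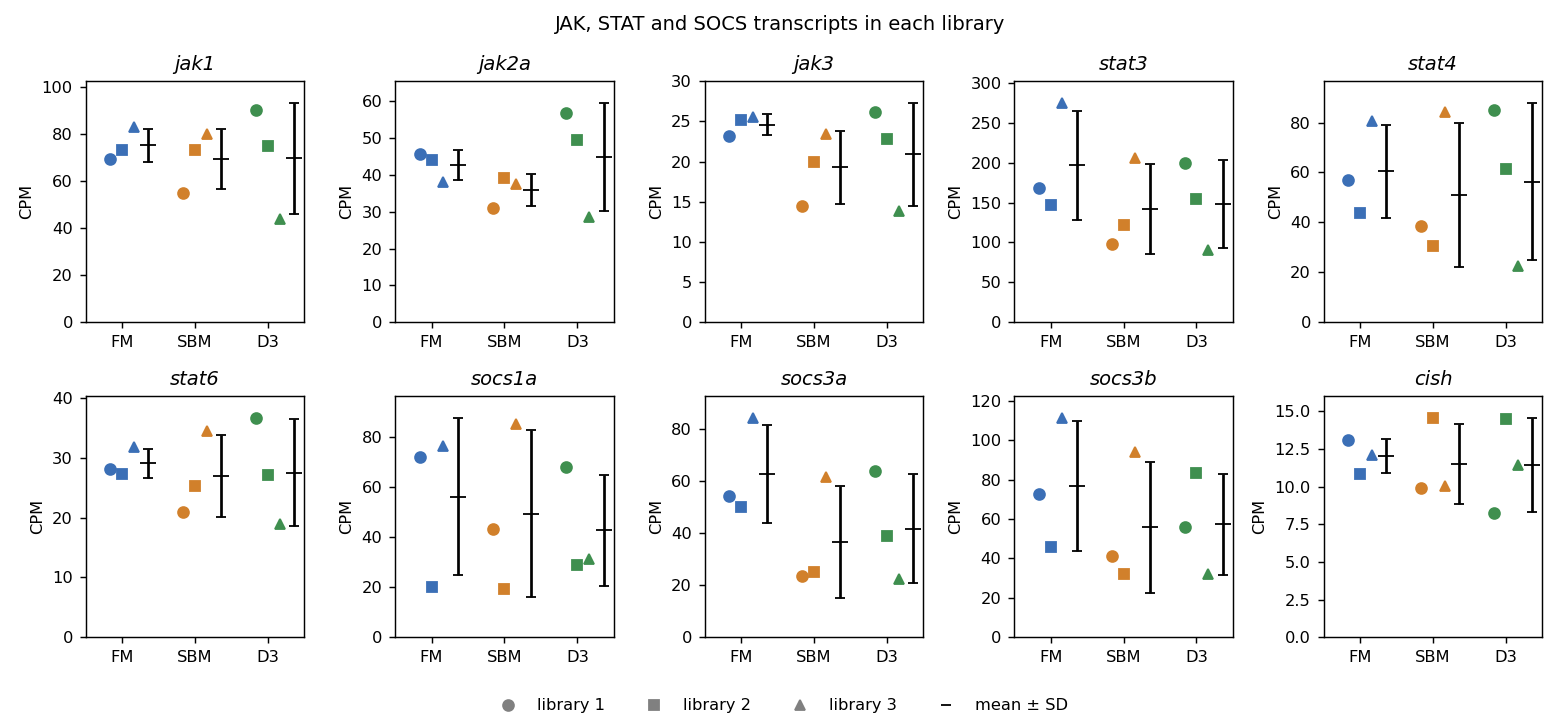
Level of each of the 10 genes in CPM (vertical axes, each starting at 0) in the FM, SBM and D3 libraries; the marker shape gives the library number, and the black bar the mean ± SD of the 3 libraries. For stat3 the FM libraries reach from 147 to 275 CPM and the SBM libraries from 98.2 to 206 CPM, so the groups overlap.

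Per length, the inhibitor socs1a was the most abundant of the 10 and the kinase jak3 the least. The mean FPKM (fragments per kilobase of gene length, scaled to library depth) over the 9 libraries was 44.6 for socs1a, 30.9 for socs3b, 26.7 for stat3, 24.1 for socs3a, 19.0 for stat4 and 18.5 for jak1. Below them stood stat6 at 10.1, jak2a at 9.12, cish at 6.49 and jak3 at 5.15. Most neighbours in this order were not separated. Each pair of neighbours overlapped in FPKM across the 9 libraries, and stat4 exceeded jak1 in 5 of 9. The step from jak1 to stat6 was the one neighbouring step with the same order in 9 of 9 libraries. The inhibitors socs1a and socs3b spanned the widest FPKM ranges, 14.5 to 91.0 and 13.3 to 55.2, against 3.82 to 6.77 for jak3 and 4.73 to 8.33 for cish.

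The kinase genes varied more among the D3 libraries than among those of FM. The level of jak1, a kinase shared by interleukin 6, interferon and interleukin 10 family receptors, was 69.3, 73.0 and 83.0 CPM over the FM libraries, 55.0, 73.0 and 79.8 over the SBM libraries and 90.2, 74.7 and 43.9 over the D3 libraries. Its lowest values were in SBM library 1 and D3 library 3, the 2 libraries rich in oocyte transcripts, and the groups overlapped. For jak2a, a copy of the kinase gene used by hormone, erythropoietin and interferon gamma receptors, the level was 45.8, 44.1 and 38.0 CPM in FM libraries 1 to 3, 31.1, 39.2 and 37.6 CPM in those of SBM, and 56.7, 49.4 and 28.6 CPM in those of D3. Here D3 libraries 1 and 2 were the highest of all 9 and D3 library 3 the lowest. The lymphocyte kinase gene jak3, whose product works with the common gamma chain of interleukin receptors, was at 23.2, 25.1 and 25.6 CPM over the FM libraries, 14.5, 20.02 and 23.5 over the SBM libraries and 26.1, 22.8 and 13.8 over the D3 libraries. SBM libraries 1 and 2 lay below every FM library, and again SBM library 1 and D3 library 3 were lowest.

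Among the STAT genes stat3 and stat4 spread widely within each group. The level of stat3 was 168, 147 and 275 CPM in FM libraries 1 to 3, 98.2, 121 and 206 CPM in those of SBM, and 200, 154 and 90.5 CPM in those of D3. One library of each group, FM library 3, SBM library 3 and D3 library 1, stood above its group mates, and the range within each group was larger than the distance between group means. For stat4, the factor of interleukin 12 signalling in T and NK lymphocytes, the level was 56.8, 43.9 and 80.5 CPM over the FM libraries, 38.5, 30.6 and 84.0 over the SBM libraries and 85.0, 61.4 and 22.7 over the D3 libraries. The same 3 libraries led, within 80.5 to 85.0 CPM of one another across the 3 groups. The gene stat6 was at 28.2, 27.3 and 31.9 CPM in FM libraries 1 to 3, 21.01, 25.3 and 34.5 CPM in those of SBM, and 36.7, 27.1 and 18.9 CPM in those of D3, with the same leaders and a smaller range.

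Of the 10 genes socs1a had the largest spread and cish the smallest. For socs1a, whose product inhibits the kinases of interferon receptors, the level was 72.3, 20.1 and 76.7 CPM over the FM libraries, 43.5, 19.4 and 85.4 over the SBM libraries and 68.2, 28.8 and 31.2 over the D3 libraries. Its highest library was 4.41 times its lowest, both in SBM, and library 2 was the lowest of its group in FM, SBM and D3. The first copy of the STAT3 target socs3, socs3a, was at 54.2, 49.9 and 84.3 CPM in FM libraries 1 to 3, 23.6, 24.98 and 61.6 CPM in those of SBM, and 63.8, 39.0 and 22.3 CPM in those of D3. SBM libraries 1 and 2 and D3 libraries 2 and 3 were below every FM library, while SBM library 3 and D3 library 1 lay within the FM range. The second copy, socs3b, was at 72.9, 46.0 and 111 CPM over the FM libraries, 41.1, 32.2 and 94.1 over the SBM libraries and 56.0, 83.5 and 32.2 over the D3 libraries. It differed from socs3a in D3, where library 2 led in place of library 1. The inhibitor gene cish, a target of STAT5 in mammals, was at 13.1, 10.8 and 12.1 CPM in FM libraries 1 to 3, 9.92, 14.6 and 10.03 CPM in those of SBM, and 8.28, 14.5 and 11.4 CPM in those of D3. Its order of libraries was unlike that of the other 9, with SBM library 2 and D3 library 2 highest and D3 library 1 lowest. The 2 highest were also the libraries richest in red blood cell transcripts and in hepatocyte transcripts. D3 library 1, the lowest for cish, was rich in hepatocyte transcripts too. The part of these cells in the cish level was not tested.

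**Figure D2:**
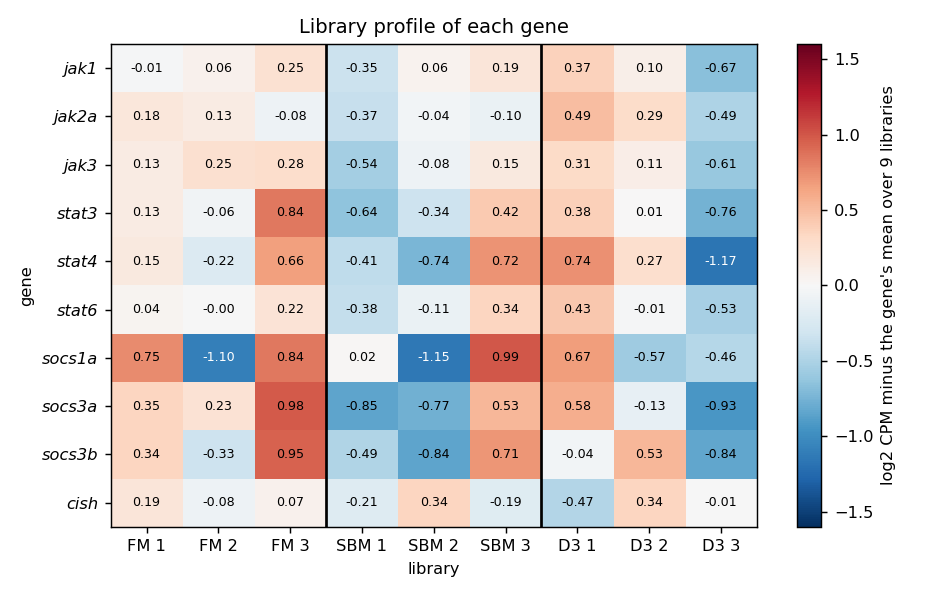
Profile of each gene (rows) over the 9 libraries (columns) as log2 CPM with a prior count of 2, minus the gene's own mean; red is above and blue below the mean, and black lines part the groups FM, SBM and D3. The row of socs3a runs from −0.93 in D3 library 3 to 0.98 in FM library 3, and that of cish from −0.47 to 0.34.

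The 3 leading libraries were shared by most of the 10 genes. FM library 3, SBM library 3 and D3 library 1 were each the highest of their group for 7 of the 10 genes, namely jak1, jak3, stat3, stat4, stat6, socs1a and socs3a. Of all 19450 tested genes 4.13% had this same pattern, which was picked out after the values were seen. At the low end, SBM library 1 and D3 library 3 were each the lowest of their group for 6 of the 10, and for 27.2% of all tested genes. The share of the log2 CPM variance that lay within groups was 67.8% for socs3a and 76.0 to 97.7% for the other 9, beside a median of 73.4% over all tested genes. The within-group SD of log2 CPM was 0.97 for socs1a, 0.77 for stat4, 0.72 for socs3b, 0.67 for socs3a and 0.54 for stat3, against 0.31 to 0.36 for the kinases, stat6 and cish. The median over all tested genes was 0.46.

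In SBM against FM, none of the 10 genes was called, and the sign of most depended on the scaling, as did the median of all tested genes. The test was edgeR's quasi-likelihood test over all genes, called at an adjusted p under 0.05; it called 0 of the 10 and 0 of 19450 genes (0% called), and 0 of the 10 had an unadjusted p under 0.05, beside 8.94% of all genes. The 10 log2 fold changes were all below 0, with a median of −0.24 beside −0.01 for all tested genes, of which 50.5% were below 0. With library size alone 4 of the 10 were below 0, with a median of 0.06 beside 0.26 for all tested genes. Without SBM library 1 and D3 library 3 it was 7 of the 10. The largest difference was that of socs3a, at 62.8 ± 18.8 (FM) and 36.7 ± 21.5 CPM (SBM; SD, n = 3 each), with a log2 fold change of −0.77 ± 0.49 (SE) and a 95% interval of −1.88 to 0.34 (edgeR unadjusted p = 0.149, adjusted p = 0.56). It stayed below 0 in 20 of 20 alternative settings, with an adjusted p of 0.385 to 0.999, and went from −1.38 without SBM library 3 to −0.43 with library size alone. For stat3, at 196 ± 68.5 and 142 ± 56.5 CPM, the log2 fold change was −0.47 ± 0.40 (95% interval −1.39 to 0.44, edgeR adjusted p = 0.622). Leaving out 1 library moved it from −0.85 (without SBM library 3) to −0.15 (without FM library 3). The kinase jak3 had −0.35 ± 0.27 (−0.98 to 0.28), −0.53 without SBM library 3 and −0.16 without the 2 libraries rich in oocyte transcripts. For socs3b it was −0.46 ± 0.51 (−1.63 to 0.71), −1.07 without SBM library 3 and −0.09 without FM library 3. For 0 of the 10 genes did the SBM and FM libraries fail to overlap, where 19.9% of all tested genes had groups that did not overlap (9.56% higher and 10.3% lower in SBM).

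Between D3 and SBM the estimates were small and their intervals wide. EdgeR's test called 0 of the 10 and 0 of all genes (0% called), and 0 of the 10 had an unadjusted p under 0.05 beside 2.07% of all genes. Of the 10, 2 were below 0, beside 45.3% of all tested genes, and the median log2 fold change was 0.05, beside 0.03. Without SBM library 1 and D3 library 3 it was again 2 of the 10, with a median of 0.10. The largest was that of jak2a, at 35.95 ± 4.26 (SBM) and 44.9 ± 14.6 CPM (D3), with 0.32 ± 0.26 (95% interval −0.27 to 0.91, edgeR unadjusted p = 0.247, adjusted p = 1). It was positive in 19 of 20 alternative settings, 0.55 without D3 library 3, and −0.31 without the 3 libraries rich in hepatocyte transcripts, which leaves 1 D3 library. For stat3 the log2 fold change was 0.06 ± 0.40 (−0.85 to 0.98), and for socs3a 0.18 ± 0.48 (−0.92 to 1.29). Without SBM library 3 stat3 was at 0.43 and socs3a at 0.77, without D3 library 3 they were at 0.30 and 0.47, without D3 library 1 at −0.21 and −0.26, and without the 3 libraries rich in hepatocyte transcripts at −0.80 and −0.99. The number of the 10 whose groups did not overlap was 0, beside 4.56% of all tested genes (2% higher and 2.56% lower in D3).

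Set against FM, most of the 10 genes had lower values in D3 under TMM scaling, without passing the test. EdgeR called 0 of the 10 and 0 of all genes (0% called), and 0 of the 10 had an unadjusted p under 0.05 beside 15.2% of all genes. Of the 10, 9 were below 0, with a median of −0.17 beside 0.04 for all tested genes, of which 47.6% were below 0. With library size alone it was 4 of the 10, with a median of 0.08 beside 0.30 for all tested genes. Without the 2 libraries rich in oocyte transcripts 6 of the 10 were below 0. For socs3a, at 41.7 ± 20.9 CPM in D3, the log2 fold change was −0.59 ± 0.49 (95% interval −1.70 to 0.52, edgeR adjusted p = 0.521), and −0.29 without those 2 libraries. It was −1.04 without D3 library 1. The second copy socs3b had −0.42 ± 0.51 (−1.59 to 0.75), with −0.81 without D3 library 2 and −0.054 without FM library 3. For stat3 the value was −0.41 ± 0.40 (−1.32 to 0.51), with −0.68 without D3 library 1 and −0.087 without FM library 3. For socs1a it was −0.40 ± 0.65 (−1.88 to 1.08), with −0.91 without D3 library 1 and −0.11 without FM library 3. Groups that did not overlap were found for 0 of the 10 genes, beside 26.4% of all tested genes (12.8% higher and 13.6% lower in D3). This comparison and SBM against FM share the FM libraries, so their like signs are not separate results.

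**Figure D3:**
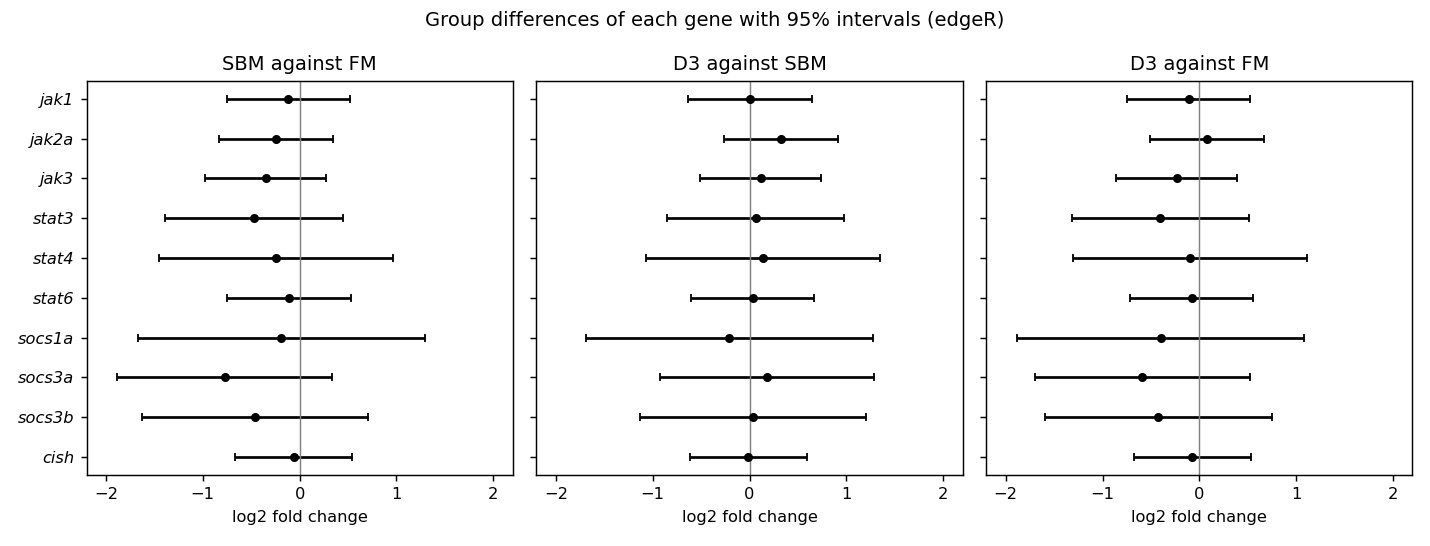
Log2 fold change (horizontal axis) of each of the 10 genes in the 3 comparisons, from 1 edgeR quasi-likelihood fit over all 9 libraries; points are estimates and bars are 95% intervals. Each of the 30 bars crosses 0, and the bars of socs1a are the widest.

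Across libraries the levels of stat3, socs3a, socs3b and stat4 were correlated, also as deviations from the group means. The Pearson correlation of log2 CPM over the 9 libraries was 0.964 for stat3 with socs3a (Spearman 0.967), with an exact permutation p of 3.31e-05 and 0.00149 after Benjamini-Hochberg adjustment over the 45 pairs of the 10 genes (0.000165 and 0.00744 for Spearman). It was 0.943 without FM library 3 and D3 library 3, the 2 farthest from the stat3 median, and 0.968 for deviations from the group means. Of 16450 genes, 4 had as high a correlation with stat3 as socs3a or higher, socs3a included. The 16450 are those with a mean of at least 1 CPM when the prior count of 2 is included. For stat3 with socs3b the correlation was 0.861 (Spearman 0.883; exact permutation p = 0.0034 and 0.00308, adjusted 0.0102 and 0.0126), 0.728 without the same 2 libraries. For stat3 with stat4 it was 0.910 (Spearman 0.90; exact permutation p = 0.000758 and 0.00203, adjusted 0.00474 and 0.0114) and 0.892 without them. With 3 libraries, a group is too small for a correlation of its own.

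**Figure D4:**
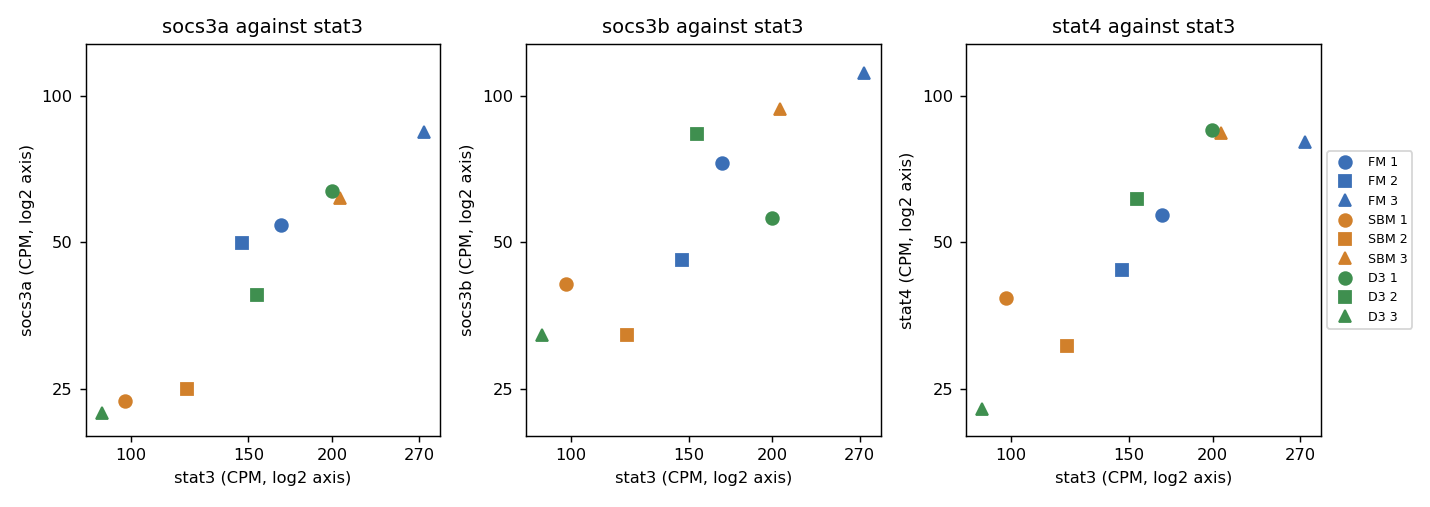
Level of socs3a, socs3b and stat4 (vertical axes) against stat3 (horizontal axes), all in CPM on log2 axes; each point is 1 library, with colour for the group and shape for the library number. In the socs3a panel D3 library 3 (90.5 and 22.3 CPM) and SBM library 1 lie at the lower left and FM library 3 (275 and 84.3 CPM) at the upper right.

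Over all 45 pairs 20 had an adjusted exact permutation p under 0.05, each of them with a positive correlation. How many pairs of any genes would pass in these libraries was not computed, so the 20 have no background beside them. The share of 16450 genes correlating with stat3 at least as highly as socs3a did was 0.0243%. For jak3 with stat4 this share was 10.1%, the highest of the 20, and for jak1 with jak2a it was 6.78%. The median correlation was 0.91 among the 3 STAT genes, 0.82 among the 3 kinases, 0.861 between STAT and SOCS genes and 0.578 between kinases and SOCS genes. These medians were 0.871, 0.361, 0.813 and 0.460 in the same order without SBM library 1 and D3 library 3. The 9 pairs with cish had correlations between −0.438 and 0.031. Without SBM library 1 and D3 library 3, 0 of these 9 were positive, with a median of −0.608. They then ran from −0.86 with stat6 to −0.091 with socs3b, and 0 had an adjusted exact permutation p under 0.05. Libraries share more than this pathway: SBM library 1 and D3 library 3 were low for many genes, and without them 0 of the 45 pairs had an adjusted exact permutation p under 0.05. At a like correlation, fewer libraries generally give a larger p. For some pairs the p still fell, as for stat3 with socs1a (exact permutation p = 0.0668 with all libraries and 0.023 without the 2). Among the remaining 7 libraries the correlation of stat3 with socs3a was 0.927 (exact permutation p = 0.00456, adjusted 0.0848), that of jak1 with jak3 was 0.614 where it was 0.933 over 9, and that of stat3 with socs1a was 0.831 where it was 0.644 over 9.

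Genes outside the set with the most similar profiles differed between its members. Likeness was the root-mean-square difference of centred log2 CPM over the 9 libraries, among genes with a mean of at least 1 CPM. Nearest to stat3 were ssh2b, a slingshot phosphatase gene, at 0.12, and the kinase gene mapkapk3 at 0.13, where the median gene stood at 0.60. For jak1 and jak3 the DNA topoisomerase gene top2b was among the 3 nearest (0.083 and 0.078), and for jak2a the actin regulator gene abi1a (0.059). For socs1a the nearest, si:ch211-217k17.12, stood at 0.22 (median gene 0.91), and for socs3b the cell cycle inhibitor gene cdkn2c at 0.25 (median gene 0.73). These distances were larger than those of the kinases, for which the median gene stood at 0.48. The measure is not scaled to a gene's own spread, which was wider for socs1a and socs3b. The gene nearest to cish was mmrn2a, an endothelial multimerin gene, at 0.088.

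Among the other JAK and STAT genes, jak2b was steady and the interferon factors had lower means in SBM and D3 than in FM without passing the test. The second jak2 copy, jak2b, was from 21.9 to 28.7 CPM over the 9 libraries, where jak2a ran from 28.6 to 56.7 CPM. The kinase gene tyk2 was at 40.9, 33.1 and 37.3 CPM over the FM libraries, 28.5, 27.6 and 37.3 over the SBM libraries and 43.5, 30.0 and 21.4 over the D3 libraries, overlapping between groups like jak1. The interferon factor stat1b was at 213, 123 and 143 CPM in FM libraries 1 to 3, 43.8, 87.0 and 86.4 CPM in those of SBM, and 95.8, 84.6 and 51.0 CPM in those of D3. Each SBM and D3 library was below every FM library for stat1b, with log2 fold changes of −1.14 ± 0.36 and −1.05 ± 0.36 against FM (edgeR unadjusted p = 0.013 and 0.019, adjusted p = 0.54 and 0.32). The groups were likewise apart for its copy stat1a, at 72.4 to 83.0 CPM in FM, 46.4 to 63.9 in SBM and 39.0 to 64.3 in D3. The partner gene stat2 was at 430, 349 and 325 CPM over the FM libraries, 108, 347 and 154 over the SBM libraries and 169, 205 and 123 over the D3 libraries. It separated from FM in D3 (−1.15 ± 0.42, edgeR unadjusted p = 0.025, adjusted p = 0.32) and not in SBM. Without SBM library 1 and D3 library 3 the log2 fold changes against FM were −0.86 (SBM) and −0.83 (D3) for stat1b and −0.54 and −0.98 for stat2. The growth hormone and cytokine factors stat5a and stat5b were low, at 2.97 to 7.29 and 7.53 to 11.9 CPM. Of these 7 genes 0 passed in any comparison.

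Among the other SOCS genes socs1b peaked and dipped partly like socs1a and socs2 partly like cish. The second copy socs1b was at 43.1, 12.9 and 29.7 CPM in FM libraries 1 to 3, 19.8, 8.16 and 47.5 CPM in those of SBM, and 51.8, 38.3 and 15.5 CPM in those of D3, with the lowest library of FM and SBM the same as for socs1a. The STAT5 target socs2 was at 9.20, 11.6 and 10.7 CPM over the FM libraries, 6.34, 12.5 and 8.47 over the SBM libraries and 5.98, 12.02 and 7.81 over the D3 libraries, with the highest SBM and D3 library the same as for cish. Of 10 further SOCS genes listed, 7 were in the table and 6 were tested; 0 passed, and socs9 had the lowest unadjusted p, 0.046, in SBM against FM (0.83 ± 0.35, edgeR adjusted p = 0.54). Whether reads were divided correctly between paralogous copies was not tested.

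Upstream, the STAT3 cytokine gene il22 had lower values in both SBM and D3. It was at 5.34, 3.87 and 7.25 CPM in FM libraries 1 to 3, 1.55, 1.34 and 2.87 CPM in those of SBM, and 2.603, 2.11 and 0.743 CPM in those of D3, and no SBM or D3 library reached the lowest FM library. Its log2 fold change was −1.51 ± 0.52 in SBM and −1.59 ± 0.52 in D3 against FM (edgeR unadjusted p = 0.018 and 0.014, adjusted p = 0.54 and 0.32). Among receptor chains, il20ra, for a chain of the interleukin 10 family receptors, was at 86.5, 73.8 and 77.0 CPM over the FM libraries, 40.9, 47.8 and 46.6 over the SBM libraries and 53.6, 41.9 and 22.7 over the D3 libraries. All SBM and D3 libraries lay below FM, at −0.81 ± 0.29 and −1.01 ± 0.29 (edgeR unadjusted p = 0.022 and 0.0078, adjusted p = 0.54 and 0.32). The same separation from FM was seen for cntfr, the ciliary neurotrophic factor receptor gene (−0.84 ± 0.28 and −0.96 ± 0.28, edgeR adjusted p = 0.54 and 0.32). The neutrophil growth factor gene csf3b reached 4.11 CPM in SBM library 1 and 1.51 in D3 library 3, the libraries rich in oocyte transcripts, against 0.0989 to 0.997 elsewhere. Its log2 fold change in SBM against FM was 3.09 ± 1.13 over all libraries and 1.02 without those 2, while il22 (−1.35 and −1.22), il20ra (−0.73 and −0.73) and cntfr (−0.67 and −1.04) remained below 0 in SBM and D3 against FM without them. The shared receptor chain of the interleukin 6 family, il6st, named after its values were seen, was at 14.4, 14.4 and 19.8 CPM in FM libraries 1 to 3, 12.5, 15.6 and 20.2 CPM in those of SBM, and 22.6, 17.8 and 10.2 CPM in those of D3. Its leading libraries were those of stat3, while il6 itself was too low to be tested.

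The wider lists of the pathway held no call in any comparison over the 9 libraries. Of 38 tested receptor genes, 27 were below 0 in SBM against FM and 24 in D3 against FM, with medians of −0.21 and −0.26 log2. These directions did not hold throughout: 17 and 19 were below 0 with library size alone (medians 0.09 and −0.01), which put the median of all tested genes at 0.26 and 0.30, and 18 and 21 without SBM library 1 and D3 library 3 (medians 0.025 and −0.07). Of 15 tested ligand genes 8 and 6 were below 0 (medians −0.09 and 0.21), and 3 and 4 with library size alone (medians 0.21 and 0.44). The mean centred log2 level of the 15 tested ligands was −0.17 to −0.12 in FM, 0.062 to 0.086 in SBM and −0.031 to 0.15 in D3. Summed over the 28 ligand genes found, untested ones included, the level was 33.2 to 38.2 CPM in FM, 29.2 to 32.2 in SBM and 29.5 to 37.8 in D3. Of 18 tested other inhibitors, such as PIAS and phosphatase genes, 15 were above 0 in each comparison with FM (medians 0.19 and 0.28). Without the 2 libraries rich in oocyte transcripts it was 14 in each (medians 0.12 and 0.07). The PIAS gene pias4b had its highest levels, 27.0 and 30.6 CPM, in SBM library 1 and D3 library 3, with 0.388 to 3.73 CPM elsewhere, the same 2 libraries that held the oocyte markers. Its log2 fold changes against FM, 4.29 ± 1.36 (SBM) and 4.33 ± 1.36 (D3), were 2.63 and 1.92 without them. The medians of the receptor, ligand and inhibitor lists were 0.05, 0.02 and 0.01 in D3 against SBM.

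Textbook STAT3 targets lay on both sides of 0. Of 27 tested, 15 were below 0 in SBM against FM and 12 in D3 against FM, with medians of −0.06 and 0.16. The summed level of the list was 5090, 2788 and 4935 CPM in SBM library 2, D3 library 1 and D3 library 2, the 3 libraries rich in hepatocyte transcripts, and 743 to 1089 CPM in the other 6. Within FM and SBM its mean centred log2 level was lowest in library 3 (−0.55 and −0.73), where stat3 was highest. D3 went the other way, with the list lowest in library 3 (−0.50), where stat3 was lowest. The target list was at 0.70 and 0.74 in D3 libraries 1 and 2. The hepatocyte list was likewise lowest in library 3 of each group, at −2.80 (FM), −3.26 (SBM) and −1.80 (D3). Without the 3 hepatocyte-rich libraries 17 of 27 were below 0 in SBM against FM and 20 in D3 against FM, then with 1 D3 library (medians −0.18 and −0.62), and the part of the hepatocyte markers was not tested. The angiogenic growth factor gene vegfaa was at 29.9, 21.7 and 30.3 CPM over the FM libraries, 11.3, 12.5 and 16.6 over the SBM libraries and 12.7, 15.2 and 9.73 over the D3 libraries. Both groups lay wholly below FM, at −1.02 ± 0.25 and −1.12 ± 0.25 (edgeR unadjusted p = 0.0032 and 0.0018, adjusted p = 0.54 and 0.32), and at −0.89 and −0.97 without SBM library 1 and D3 library 3. SBM library 3 and D3 library 1, where stat3 was high, were below each FM library for vegfaa. Within FM and within SBM the libraries had the same order for vegfaa as for stat3. D3 library 3 was the lowest of its group for both, while D3 library 2 led for vegfaa and D3 library 1 for stat3. A link between the 2 genes was not tested. The survivin gene birc5a was higher in each SBM and D3 library than in FM, with 27.8 CPM in SBM library 1 and 42.1 in D3 library 3, against 2.95 to 8.58 elsewhere. Here too the 2 high libraries were those of the oocyte markers, and without them its log2 fold changes of 1.95 ± 0.81 (SBM) and 2.47 ± 0.82 (D3) against FM were 0.93 and 1.25. Summed over 14 proliferation genes, the level was likewise highest in these 2 libraries, at 1552 and 1706 CPM, against 234 to 593 CPM elsewhere. Without them 14 (SBM) and 13 (D3) of these 14 genes were above 0 against FM (medians 0.88 and 1.35). A link of birc5a with these genes was not tested. Of 11 tested targets and partners of STAT4 and STAT6, 10 were below 0 in each comparison with FM (medians −0.42 and −0.34). With library size alone it was 9 and 7 (medians −0.16 and −0.09, beside 0.26 and 0.30 for all tested genes). Markers of enterocytes, exocrine pancreas, smooth muscle and T, NK and B lymphocytes were mostly lower as well under TMM scaling. Of 14 enterocyte markers 14 were below 0 in SBM against FM and 13 in D3 against FM (medians −0.84 and −0.77), with an unadjusted edgeR p under 0.05 for 8 and 4 and 0 called. For 16 exocrine pancreas markers it was 16 in each (medians −0.47 and −0.79), and for 11 smooth muscle markers 10 in each (medians −0.37 and −0.70). Of 15 T and NK lymphocyte markers 14 and 13 were below 0 (medians −0.44 and −0.39), and of 5 tested B lymphocyte markers 5 and 4 (medians −0.38 and −0.12). Of 14 macrophage markers it was 14 and 8 (medians −0.43 and −0.06), and of 10 neutrophil markers 4 in each (medians 0.20 and 0.81). With library size alone 4 and 2 of the B lymphocyte markers were below 0 (medians −0.09 and 0.13). For macrophage markers it was then 10 and 4 (medians −0.12 and 0.19), and for smooth muscle markers 7 and 9. Enterocyte markers were then at 14 and 12, exocrine pancreas markers at 14 and 16, and T and NK lymphocyte markers at 12 and 10. The part of these markers in the lower receptor and target lists was not tested. Among the STAT4 and STAT6 targets the chemokine gene ccl20a.3 was at 11.6 to 12.5 CPM in FM, 6.15 to 7.80 in SBM and 3.12 to 7.09 in D3 (−0.76 ± 0.33 and −1.41 ± 0.34, edgeR adjusted p = 0.54 and 0.32).

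**Figure D5:**
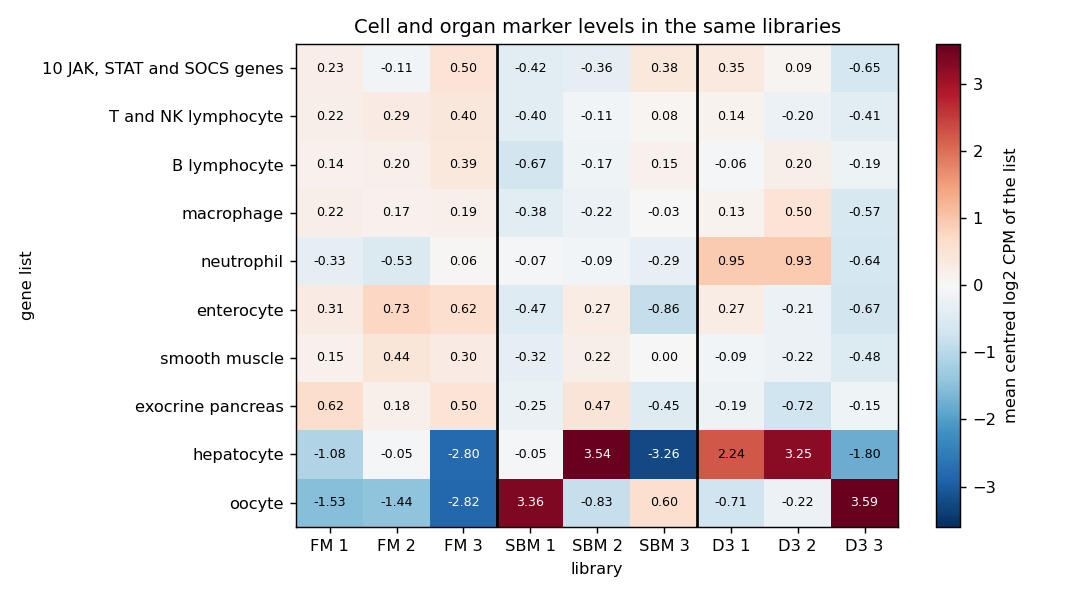
Mean centred log2 CPM (prior count 2) of the 10 genes and of 9 lists of cell and organ markers (rows) in each library (columns), with red above and blue below the list's mean over the 9 libraries. The top row is highest in FM library 3 (0.50) and lowest in D3 library 3 (−0.65), where the oocyte list is at its highest (3.59).

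Immune cell markers were compared with the 10 genes because JAK3, STAT4 and the SOCS proteins are prominent in leukocytes; fewer cells of a type and less RNA per cell cannot be told apart in such bulk libraries. The summed level of the 15 of 18 listed T and NK lymphocyte markers found was 148 to 164 CPM in FM, 85.6 to 136 in SBM and 99.4 to 165 in D3, and none of the 15 was at 0 in any library. It was lowest in SBM library 1, at 85.6 CPM, and D3 library 3, at 99.4 CPM, where jak3 and stat3 were lowest too. The 14 macrophage markers summed to 1724 to 2054 CPM in FM, 996 to 1802.2 in SBM and 1121 to 2292 in D3, with the same 2 libraries lowest. This low was not particular to leukocytes. Summed smooth muscle (1268 and 1115 CPM), endothelial (72.1 and 67.4 CPM) and red blood cell markers (96.4 and 88.4 CPM) were also lowest in SBM library 1 and D3 library 3. For the summed enterocyte, exocrine pancreas, B lymphocyte and neutrophil markers these were not the 2 lowest. The 10 neutrophil markers summed to 324 to 1621 CPM in FM, 322 to 1234 in SBM and 220 to 1079 in D3. In FM and SBM, though not in D3, most of the range was mpx, the myeloperoxidase gene. Its level was 139, 47.8 and 1327 CPM in FM libraries 1 to 3 and 140, 51.4 and 964 CPM in those of SBM. In D3 libraries 1 to 3 it was 476, 449 and 35.0 CPM. FM library 3, SBM library 3 and D3 library 1, the leading libraries for stat3 and socs3a, were the highest of their groups for mpx. The 10 markers together did not follow mpx: their mean centred log2 level was lowest of SBM in library 3 (−0.29, against −0.069 and −0.087), and D3 libraries 1 and 2 were about level (0.95 and 0.93). The lysozyme gene lyz, at 7.08 to 22.7 CPM, did not share these peaks, with 9.68 CPM in FM library 3 and 7.08 in SBM library 3. For ncf1, an oxidase subunit gene, the same 3 libraries were highest of their groups, at 152, 144 and 160 CPM, within a range of 74.5 to 160 CPM over the 9. The part of these markers in the levels of the 10 genes was not tested.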

How the data were processed

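RNA from 9 zebrafish intestine samples was sequenced; per the labels' protocols it was extracted with a Qiagen kit and 1.3 µg went into each SMARTer mRNA library. The authors deposited raw whole-number counts per gene and an FPKM table; each FPKM equals the count divided by a gene length and the library total within 0.000122%, so both hold 1 measurement. For aligner, counter, strand setting, build and annotation the entry is: not given in the sources used here.

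Groups come from the titles. The deposited counts went into edgeR 4.0.16 (R 4.3.3): filterByExpr (minimum count 10) kept 19450 of 26983 genes, TMM factors ran from 0.846 to 1.204, and 1 quasi-likelihood fit used all 9 libraries with 6 residual degrees of freedom. Tests were two-sided with Benjamini-Hochberg adjustment over all tested genes. The SE is the log2 fold change divided by the root of F. The fit was tested on simulated data. Correlations (Python 3.11.15, two-sided) used all permutations of the libraries. DESeq2 1.42.0, limma 3.58.1, library size alone, no filter, log2(FPKM + 0.1) and log2(FPKM + 1), the 2 groups alone, a replicate block and each library left out were alternatives. Intervals cover the spread between libraries, and counts are without molecular identifiers.

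The 10 genes and the lists were chosen with earlier results of these data known. Named list genes are those with the lowest unadjusted p in any comparison, up to 4 per list, all other JAK and STAT genes, and up to 3 markers per cell type with the highest mean CPM; il6, il6st and lyz fall outside this rule and were chosen after their values were seen.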

Additional observations from a re-analysis of the deposited data

How the results depend on the processing

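With 20 alternative settings for each of 30 log2 fold changes, 501 of 600 values kept their sign, 99 reversed and 0 passed the test; the causes of the reversals were not tested. In SBM against FM jak3, stat3, socs3a and socs3b kept their sign in all 20, and in D3 against FM stat3, socs1a, socs3a and socs3b did. DESeq2 called 106, 5 and 897 genes in SBM against FM, D3 against SBM and D3 against FM, where edgeR called 0 with 1738, 402 and 2954 at an unadjusted p under 0.05, and 0 of the 10 genes; limma-voom called 0 genes. Library size alone moved the median of all tested genes to 0.26, 0.03 and 0.30 log2. With library size alone, the log2 fold change in SBM against FM was 0.15 for jak1, 0.015 for jak2a, 0.11 for stat4, 0.18 for stat6, 0.20 for socs1a and 0.17 for cish. For D3 against SBM, it was −0.017 for jak1, −0.0076 for stat6, −0.066 for socs3b and 0.023 for cish. Likewise for D3 against FM, it was 0.14 for jak1, 0.013 for jak3, 0.14 for stat4, 0.17 for stat6 and 0.20 for cish. With DESeq2 size factors in edgeR, the log2 fold change in D3 against SBM was 0.0027 for cish. By DESeq2, the log2 fold change in D3 against SBM was 0.0036 for cish. By limma-voom, the log2 fold change in D3 against SBM was −0.037 for jak1. With the replicate block, the log2 fold change in D3 against SBM was −0.0045 for jak1. With the 2 groups compared alone, the log2 fold change in D3 against SBM was −0.0037 for jak1. By limma on log2(FPKM + 0.1), the log2 fold change in SBM against FM was 0.13 for jak1, 0.0087 for jak2a, 0.12 for stat6, 0.048 for socs1a and 0.17 for cish. For D3 against SBM, it was −0.029 for jak1. Likewise for D3 against FM, it was 0.097 for jak1, 0.013 for stat4, 0.14 for stat6 and 0.16 for cish. By limma on log2(FPKM + 1), the log2 fold change in SBM against FM was 0.12 for jak1, 0.0083 for jak2a, 0.11 for stat6, 0.051 for socs1a and 0.15 for cish. For D3 against SBM, it was −0.027 for jak1. Likewise for D3 against FM, it was 0.095 for jak1, 0.020 for stat4, 0.13 for stat6 and 0.14 for cish. Without SBM library 1 and D3 library 3, the log2 fold change in SBM against FM was 0.044 for jak1, 0.061 for stat6 and 0.051 for cish. For D3 against FM, it was 0.13 for jak1, 0.27 for stat4 and 0.13 for stat6. Without SBM library 2, D3 library 1 and D3 library 2, the log2 fold change in SBM against FM was 0.040 for stat4 and 0.21 for socs1a. For D3 against SBM, it was −0.67 for jak1, −0.31 for jak2a, −0.51 for jak3, −0.80 for stat3, −1.49 for stat4, −0.61 for stat6, −0.99 for socs3a, −1.12 for socs3b and 0.15 for cish. Likewise for D3 against FM, it was −0.61 for jak2a. Both of these removals were chosen after seeing the data; the last leaves 1 D3 library, assumed to vary like the other groups, and 1934 genes were then called in D3 against FM. Values of the other pathway genes and lists without these libraries and with library size alone were likewise added after seeing the data. When 1 library was left out in turn, the range in SBM against FM was −0.84 to 0.19 for socs1a, −0.27 to 0.015 for cish, −0.81 to 0.020 for stat4, −0.24 to 0.011 for jak1 and −0.34 to 0.029 for stat6. The range in D3 against SBM was −0.22 to 0.24 for jak1, −0.078 to 0.33 for jak3, −0.21 to 0.43 for stat3, −0.28 to 0.70 for stat4, −0.23 to 0.25 for stat6, −0.26 to 0.77 for socs3a, −0.35 to 0.63 for socs3b, −0.22 to 0.19 for cish and −0.72 to 0.43 for socs1a. The range in D3 against FM was −0.13 to 0.30 for jak2a, −0.52 to 0.26 for stat4, −0.29 to 0.11 for cish, −0.34 to 0.12 for jak1 and −0.34 to 0.11 for stat6. Libraries of the same number did not deviate together in every pair (correlations of 0.07 to 0.29 in SBM against FM, and −0.58 to 0.52 in D3 against SBM), so the replicate block is an alternative only; with the block 0 genes were called in each comparison. Counts limit little for the 10 genes, whose lowest was 299, and the number of libraries limits their intervals. Some list genes, such as csf3b, pias4b and il22, rest on far fewer reads in their low libraries, so their log2 fold changes are less certain.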
